A study of Homo sapiens with 6 samples.

Results

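The transcriptional co-activators YAP1 and TAZ (gene symbol WWTR1), the TEAD factors they work with, and a set of their best known targets and feedback regulators were followed by RNA sequencing in WM164 human melanoma cells. The 10 genes were picked by symbol from the 58870 rows of the count table, and each symbol named 1 row. They were the co-activators YAP1 and WWTR1, the DNA-binding factors TEAD1 and TEAD4, the kinase LATS2, the adaptors AJUBA and AMOTL2, and the target genes CCN1, CCN2 and ANKRD1. WM164 is an established melanoma line, and the study asked how a dimer of the transcription factors MAFG and MITF alters its transcriptome. 3 libraries came from cells carrying green fluorescent protein (GFP) as a control. The other 3 came from cells carrying T-MGM, in which the melanocytic isoform of MITF and MAFG are joined by a flexible linker into 1 protein. Both constructs were delivered by lentivirus under the EF1α promoter with blasticidin selection, in the same line and the same serum-containing RPMI medium, so both groups share the infection and the selection. No source says whether the 3 libraries of a group came from separate cultures, so p-values measure only the spread between these libraries, which may be technical.

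In the Hippo pathway a chain of kinases ends in LATS1 and LATS2, which phosphorylate YAP1 and TAZ and keep them out of the nucleus. Unphosphorylated YAP1 and TAZ have no DNA-binding domain of their own and act through TEAD factors, which recognise a short GGAATG element. Their targets include secreted CCN proteins and, as negative feedback, the pathway's own inhibitors LATS2 and AMOTL2. In melanoma, YAP/TAZ-TEAD activity is commonly linked with dedifferentiated, invasive states. Since the pathway is switched mainly by phosphorylation and location of the proteins, RNA levels measure its parts and its targets, not its activity.

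Promoter sequences were available for 7 of the 10 genes, with 10 windows in all, each from 250 bases before to 50 bases after a start site (RefSeq, build GRCh38.p14). The upstream part is printed for CCN2, which had the largest change of the 10 and the most copies of GGAATG. It is also printed for ANKRD1, a classical target with the next highest number of copies. YAP1 is printed as the 1 co-activator with both a GGAATG and an E-box of the kind MITF binds. Sequences run 5′ to 3′ on the strand of the gene, and capitals mark GGAATG or, in YAP1, also CACGTG.
CCN2, chr6:131951373-131951622, minus strand: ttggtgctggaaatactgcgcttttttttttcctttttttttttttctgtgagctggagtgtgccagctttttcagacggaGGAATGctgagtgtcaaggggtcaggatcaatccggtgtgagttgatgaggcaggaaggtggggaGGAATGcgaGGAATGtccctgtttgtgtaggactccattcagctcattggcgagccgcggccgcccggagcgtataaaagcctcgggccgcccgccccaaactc
ANKRD1, chr10:90921088-90921337, minus strand: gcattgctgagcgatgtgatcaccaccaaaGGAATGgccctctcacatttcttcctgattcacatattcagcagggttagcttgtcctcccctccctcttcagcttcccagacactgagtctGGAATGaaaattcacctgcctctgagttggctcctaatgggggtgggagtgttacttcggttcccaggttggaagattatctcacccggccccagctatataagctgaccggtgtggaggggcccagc
YAP1, chr11:102110197-102110446, plus strand: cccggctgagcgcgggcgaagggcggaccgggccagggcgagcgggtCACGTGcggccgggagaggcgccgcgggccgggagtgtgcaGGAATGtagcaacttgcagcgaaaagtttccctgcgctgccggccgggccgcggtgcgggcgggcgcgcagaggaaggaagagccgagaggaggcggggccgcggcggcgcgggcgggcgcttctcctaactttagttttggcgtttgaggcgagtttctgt
The CCN2 promoter held 3 copies of GGAATG, at -169 to -164, -104 to -99 and -95 to -90 from the start, all reading in the direction of the gene. Of 35116 RefSeq promoter windows of the same 300-base length, 14% held at least 1 copy on either strand, 1.37% at least 2 and 0.128% at least 3, which is 45 windows. The first copy in CCN2 overlapped a match to the MAF recognition core TGCTGA at -165 to -160, a motif found in 17.3% of all windows. ANKRD1 held 2 copies, starting at -220 and -128, with a match to the AP-1 motif TGANTCA at -195 (7.71% of windows) and 2 copies of TGCTGA. YAP1 held 1 copy starting at -162 and the E-box CACGTG at -203 (7.26% of windows).

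Over all, 6 of the 10 windows had a GGAATG match on either strand, 1 window each of YAP1, CCN2, ANKRD1, LATS2, AMOTL2 and AJUBA. The longer TEAD motif CATTCCA, held by 4.18% of all windows, matched 1 window each of ANKRD1, LATS2 and AJUBA. It matched no window of CCN2, YAP1 or AMOTL2, so the first place of CCN2 holds for the short motif only. In LATS2 the match lay just inside the transcript, and a CACGTG spanned the start site itself. WWTR1 had no GGAATG in either of its windows and a single CATGTG, the other common MITF E-box (11.1% of windows), at -45. None of the 10 windows matched the SRF motif CArG, which 1.29% of all windows held. Matches are letters in a window, and these RNA libraries measure no binding. The study mapped MAFG and MITF on the genome of WM164 cells by CUT&RUN, and those data were not used here.

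GFP libraries held 35057239 to 38738065 counts and those labelled T-MGM 44577774 to 59250663, so values are given as counts normalized by the median of ratios. Libraries of a group correlated with each other at Pearson r of 0.990 to 0.993 over 12654 expressed genes, and libraries of different groups at 0.969 to 0.974, which describes genes within these libraries, not independent replicates. Neither gene of the construct stood out in the libraries labelled T-MGM. MAFG had 2458 ± 70.3 normalized counts (SD, n = 3) in GFP and 2358 ± 34.9 in T-MGM (log2 fold change -0.06, DESeq2 adjusted p = 0.236), and passed as lower in 5 of 18 alternatives (-0.11 to -0.22, lowest adjusted p = 5.85e-05). MITF had 19161 ± 46.9 and 20270 ± 165 (log2 fold change 0.08, DESeq2 adjusted p = 4.8e-07, with the sign turned on the deposited TPM). The label T-MGM is therefore used as the submitters gave it. Defining genes of the melanocytic lineage (SOX10, PMEL, MLANA, TYR, DCT and MITF) were abundant in all 6 libraries, with 107778 to 116089 normalized counts in sum. Of these pigment-cell genes DCT fell from 11460 ± 126 to 2051 ± 88.8 normalized counts (SD, n = 3, log2 fold change -2.49). MLANA fell by 0.68 and TYR by 0.35 on the log2 scale, while SOX10 (0.11), PMEL (0.05) and MITF rose slightly in normalized counts. The rises of PMEL and SOX10 were not seen in the deposited TPM. There PMEL had 246 to 256 TPM in GFP and 235 to 240 in T-MGM, and SOX10 had 413 to 419 and 389 to 414.

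Fold changes are expressed as log2 of T-MGM relative to GFP, from DESeq2 fitted to the whole count table with Benjamini-Hochberg adjustment over the 19135 genes tested. All 10 genes passed the filter and were tested. CCN2 was the 1 gene of the 10 that rose over 2-fold at an adjusted p at or under 0.05, against 4.63% of all genes tested and 3.26% for the higher direction. At an adjusted p at or under 0.05 with no limit on size, CCN2, AMOTL2 and WWTR1 rose and LATS2 and TEAD1 fell (5 of 10, against 38.4% of all genes, 19.2% in each direction). YAP1, TEAD4, AJUBA, CCN1 and ANKRD1 did not pass. For 6 of the 10 genes the normalized counts of GFP and T-MGM were fully separate, 3 higher and 3 lower, against 46.8% of all genes. The share of the 10 that passed was thus near the background, and the median log2 fold change was 0.10, against 0.00 over all genes tested. Apart from CCN2 and ANKRD1, the log2 fold changes lay between -0.23 and 0.22, with wide limits for CCN1.

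**Figure D1:**
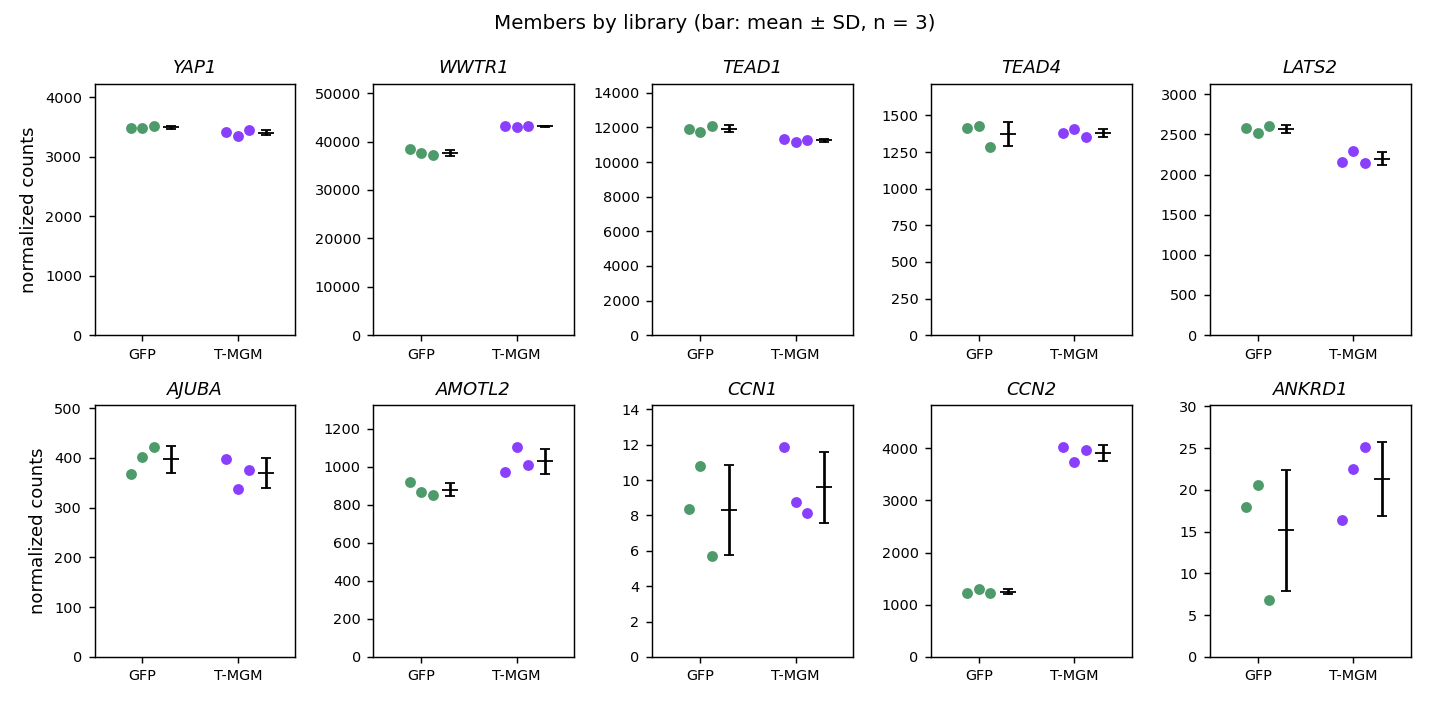
Normalized counts (y axis, from 0 in each panel) of the 10 genes in the 3 GFP and 3 T-MGM libraries, 1 point a library, with the mean and SD beside them. CCN2 stands apart with 1218 to 1303 counts in GFP and 3738 to 4019 in T-MGM, WWTR1, AMOTL2, LATS2, TEAD1 and YAP1 separate by small steps, and TEAD4, AJUBA, CCN1 and ANKRD1 overlap.

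Of the co-activators, WWTR1 rose slightly and YAP1 did not pass the test. WWTR1, which encodes TAZ (chr3:149517235-149736714, minus strand), had 38406, 37612 and 37166 normalized counts under GFP and 43179, 43116 and 43314 in T-MGM. Every T-MGM library lay above every GFP library. The log2 fold change was 0.20 (SE 0.01), a fold of 1.15, with a DESeq2 adjusted p of 2.85e-44.

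YAP1 (chr11:102110447-102233424, plus strand) had 3484, 3478 and 3523 normalized counts under GFP and 3411, 3354 and 3440 in T-MGM. The GFP libraries were all higher, by a margin too small for the test, with a log2 fold change of -0.04 ± 0.03 (SE, with an adjusted p = 0.381). Its 95% limits were 0.933 to 1.02 in fold. YAP1 passed as lower with scaling by total counts, and turned to 0.02 with offsets for GC content and gene length.

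The balance of the pair moved with WWTR1. Each library had 10.6 to 11.02 WWTR1 counts for each YAP1 count in GFP and 12.6 to 12.9 in T-MGM. The ratio, which needs no scaling between libraries, was 10.8 ± 0.237 (SD, n = 3) in GFP and 12.7 ± 0.136 in T-MGM, a difference of 0.23 on the log2 scale. An exact 2-sided permutation test gave p = 0.1, the smallest that 3 against 3 libraries allow. Per transcript length the ratio was 8.36 ± 0.169 and 9.84 ± 0.265 on the TPM scale, so RNA for TAZ exceeded RNA for YAP1 in both groups.

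The TEAD factors, through which both co-activators reach DNA, moved little. TEAD1 (chr11:12674421-12944737, plus strand) had 11930, 11717 and 12111 normalized counts under GFP and 11344, 11171 and 11249 in T-MGM. All 3 T-MGM libraries were lower (log2 fold change -0.08, SE 0.02, DESeq2 adjusted p = 7.16e-05), and the call was lost with offsets for GC content and gene length (-0.02, adjusted p = 0.507). TEAD4 (chr12:2959330-3040676, plus strand) had 1413, 1431 and 1282 normalized counts under GFP and 1379, 1408 and 1355 in T-MGM. These groups overlapped, and the log2 fold change was 0.00 (SE 0.05, DESeq2 adjusted p = 0.961). Its sign turned under several scalings and without GFP replicate 3 (-0.042) or T-MGM replicate 2 (-0.007). With the same offsets TEAD4 passed as lower (-0.14, adjusted p = 0.0202).

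The remaining TEAD paralogs were at lower levels. TEAD2 had 494, 497 and 546 normalized counts under GFP and 418, 444 and 427 in T-MGM, a log2 fold change of -0.26 ± 0.09 (SE, with an adjusted p = 0.0133) that no longer passed without GFP replicate 3 (-0.21, adjusted p = 0.117), T-MGM replicate 1 (-0.24, adjusted p = 0.0664) or T-MGM replicate 3 (-0.25, adjusted p = 0.0551). TEAD3 had 188 ± 31.3 (SD, n = 3) and 171 ± 6.25 normalized counts and did not pass (DESeq2 adjusted p = 0.541). Of the TPM summed over the 4 TEAD genes, TEAD1 made up 58.3% ± 1.13 in GFP and 58.0% ± 1.47 in T-MGM (SD, n = 3), and TEAD4 31.0% ± 2.18 and 32.8% ± 1.36. The order TEAD1, TEAD4, TEAD2, TEAD3 held in every library.

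Of the pathway's regulators among the 10, LATS2 fell and AMOTL2 rose, both by a small amount, and AJUBA did not pass. LATS2, the kinase that phosphorylates YAP1 and TAZ (chr13:20973036-21061586, minus strand), had 2579, 2517 and 2610 normalized counts under GFP and 2157, 2287 and 2150 in T-MGM. No T-MGM library reached the lowest GFP library. The log2 fold change was -0.23 (SE 0.04, DESeq2 adjusted p = 7.52e-08), and it stayed between -0.33 and -0.21 over 18 alternative settings.

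Its paralog LATS1 had 3328, 3197 and 3259 normalized counts under GFP and 3130, 2865 and 3103 in T-MGM. It passed as lower with a log2 fold change of -0.10 ± 0.04 (SE, with an adjusted p = 0.0165), and the call was lost without GFP replicate 1 (-0.09, adjusted p = 0.1004), GFP replicate 3 (-0.10, adjusted p = 0.0578) or T-MGM replicate 2 (-0.06, adjusted p = 0.199), and the sign turned with offsets for GC content and gene length (0.0282). The ratio of LATS1 to LATS2 was 1.47 ± 0.0365 in GFP and 1.51 ± 0.132 in T-MGM on the TPM scale (SD, n = 3, exact permutation p = 0.8), with overlapping groups.

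AMOTL2, an angiomotin-family scaffold that binds YAP1 and is itself a target (chr3:134355347-134375479, minus strand), had 921, 869 and 853 normalized counts under GFP and 975, 1103 and 1009 in T-MGM. All T-MGM libraries were higher, with a log2 fold change of 0.22 ± 0.07 (SE, with an adjusted p = 0.00242). The call rested in part on T-MGM replicate 2, the highest library, without which the log2 fold change was 0.17 (adjusted p = 0.0514), and it was also lost with offsets for GC content and gene length (0.13, adjusted p = 0.131) and on the TPM scale (0.06 to 0.07, adjusted p = 0.471 to 0.572). AJUBA, a LIM-domain adaptor that restrains LATS kinases (chr14:22971177-22982551, minus strand), had 368, 403 and 421 normalized counts under GFP and 398, 339 and 375 in T-MGM. The groups overlapped, and the log2 fold change was -0.10 (SE 0.10, DESeq2 adjusted p = 0.5005).

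Of the classical targets, CCN2 rose, and CCN1 and ANKRD1 had too few reads for a close estimate. CCN2, formerly CTGF, encodes a secreted matricellular protein of wound repair and fibrosis (chr6:131948176-131951372, minus strand). It had 1218, 1303 and 1227 normalized counts under GFP and 4019, 3738 and 3969 in T-MGM. The lowest T-MGM library was far above the highest GFP library, and the spread within each group was small (1249 ± 46.4 and 3909 ± 150, SD, n = 3). The log2 fold change was 1.65 (SE 0.04), a fold of 3.13 with 95% limits of 2.95 to 3.32, and the DESeq2 adjusted p was stored as 0. edgeR's quasi-likelihood test gave 1.65 with an adjusted p of 3.33e-17, and over 18 alternative settings the value stayed between 1.42 and 1.68 and past both limits of the call.

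CCN1, formerly CYR61, the paralog of CCN2 and a standard reporter of the same pathway (chr1:85580761-85584589, plus strand), was barely detected. It had 7, 10 and 5 raw counts in GFP and 13, 9 and 11 in T-MGM, or 8.31 ± 2.56 and 9.59 ± 1.997 normalized counts (SD, n = 3). With so few reads the log2 fold change of 0.20 ± 0.69 (SE, with an adjusted p = 0.868) had 95% limits of 0.451 to 2.92 in fold, so a fall or a rise within these limits is not excluded at this depth.

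ANKRD1, a nuclear ankyrin-repeat protein induced by stretch in muscle and by YAP/TAZ in many cells (chr10:90912096-90921087, minus strand), was also near the bottom of the range. It had 15, 19 and 6 raw counts in GFP and 18, 23 and 34 in T-MGM. The groups overlapped after normalization (15.1 ± 7.29 and 21.3 ± 4.44, SD, n = 3), and the log2 fold change was 0.50 (SE 0.51, DESeq2 adjusted p = 0.501) with a fold between 0.709 and 2.81. The 2 promoters with the most copies of GGAATG, CCN2 and ANKRD1, thus belonged to genes of very different level.

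Some exons of these genes are shared with genes on the opposite strand, and the sources disagree on whether the libraries kept strand. LINC01013 overlaps 11.9% of the exon bases of CCN2 and had 1 to 31 raw counts a library, against 1016 to 5379 for CCN2. WWTR1-AS1 overlaps 9.05% of those of WWTR1 and had 23 to 49 raw counts. Reads in the shared bases may be assigned to the other gene, or left out of both, where strand was not used.

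**Figure D2:**
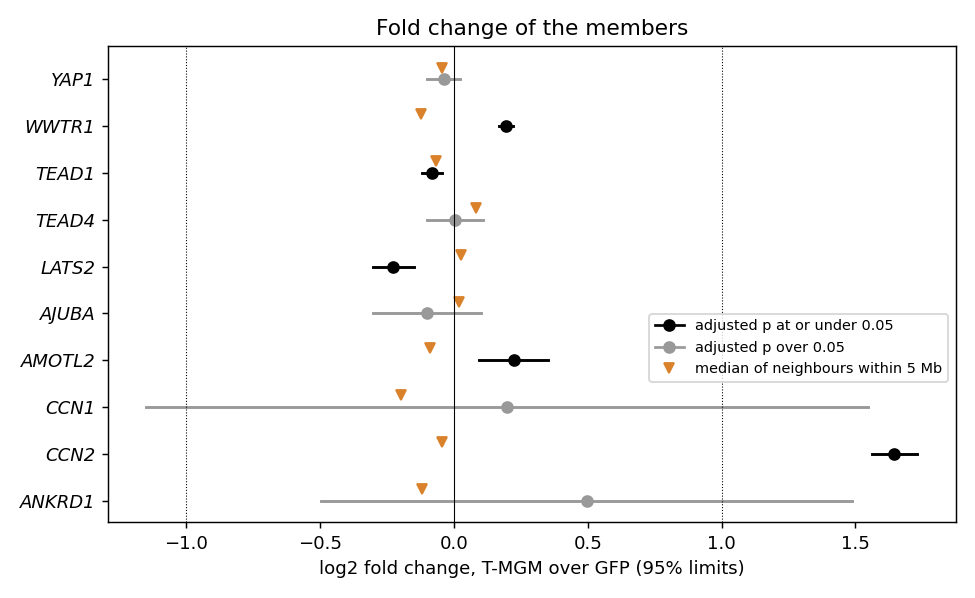
Log2 fold change of T-MGM over GFP (x axis) with 95% limits for the 10 genes, in black where the DESeq2 adjusted p was at or under 0.05 and in grey where it was not; dotted lines mark 2-fold and triangles the median of expressed genes within 5 Mb. CCN2 is the 1 gene beyond 2-fold, at 1.65, while CCN1 and ANKRD1 have wide limits.

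The small fold changes were set beside those of chromosomal neighbours, the genes within 5 Mb with a mean of at least 50 normalized counts. CCN2 was above all 28 of its neighbours, whose median log2 fold change was -0.04. WWTR1 at 0.20 was above 19 of 21 (median -0.12), and AMOTL2 at 0.22 above 36 of 42 (median -0.09). Only 1 of 26 neighbours was below LATS2 at -0.23 (median 0.03). TEAD1 at -0.08 and YAP1 at -0.04 were close to the medians of their neighbours, -0.07 over 48 genes and -0.04 over 13 genes. CCN2 was thus the 1 gene of these outside the range of its neighbours. The neighbours of TEAD1 went both ways, with 11 higher and 12 lower at an adjusted p at or under 0.05. Their quartiles were -0.14 and 0.12, and whether TEAD1 shared a shift with them was not tested.

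Levels were compared between genes per transcript length, in the deposited TPM. WWTR1 was the most abundant in both groups, at 212.5 ± 1.70 TPM in GFP and 225 ± 1.76 in T-MGM (SD, n = 3). TEAD1 came next in GFP at 37.7 ± 1.005 TPM, before YAP1 at 25.4 ± 0.551 and TEAD4 at 19.98 ± 1.37. CCN2 followed at 11.3 ± 0.465 TPM, above LATS2 at 9.32 ± 0.1002. These ranges were all separate, as were those of AMOTL2 at 4.46 ± 0.201 TPM and AJUBA at 2.64 ± 0.740, whereas ANKRD1 at 0.16 ± 0.0794 and CCN1 at 0.0767 ± 0.0252 overlapped.

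In T-MGM the order changed at 1 place, since CCN2 rose to 31.9 ± 1.05 TPM and passed YAP1 (22.9 ± 0.778) and TEAD4 (18.5 ± 0.935). Its range overlapped that of TEAD1, at 32.7 ± 0.542 TPM. LATS2 followed at 7.39 ± 0.446 TPM, AMOTL2 at 4.70 ± 0.110 and AJUBA at 2.22 ± 0.215. ANKRD1 at 0.207 ± 0.0416 and CCN1 at 0.08 ± 0.0173 stayed at the bottom. When counts were instead divided by the length of all annotated exons, CCN2 in T-MGM was second, above TEAD1 (85.6 ± 1.89 against 53.9 ± 0.841 on a scale like TPM), and TEAD4 was above YAP1 in both groups, so these neighbours depend on the length used.

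**Figure D3:**
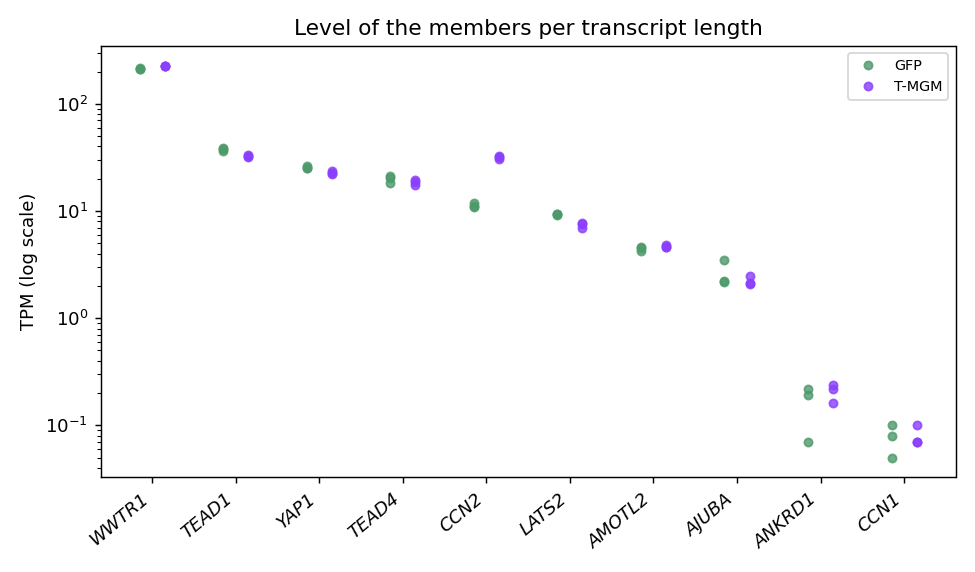
Level of the 10 genes in TPM (y axis, log scale), 1 point a library, GFP and T-MGM side by side and ordered by the GFP mean. Levels run from 212.5 TPM for WWTR1 to 0.0767 for CCN1 in GFP, and CCN2 is the 1 gene that moves in the order, from 11.3 to 31.9 TPM.

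CCN2 was next set beside the rest of its family. CCN3, also called NOV, had 224, 224 and 212 normalized counts under GFP and 475, 522 and 501 in T-MGM. It rose in every library, by a log2 value of 1.18 ± 0.11 (SE, adjusted p = 3.85e-27), against 1.65 for CCN2. The ratio of CCN2 to CCN3 was 5.28 ± 0.592 in GFP and 8.03 ± 0.534 in T-MGM on the TPM scale (SD, n = 3, exact permutation p = 0.1, the smallest possible). CCN4 had 3.43 to 8.39 normalized counts a library in all 6 (DESeq2 adjusted p = 0.894), and CCN5 and CCN6 had at most 2.17 and were not tested. Of the CCN genes, CCN2 and CCN3 were thus the ones both expressed and higher.

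The 5 genes whose pattern over the 6 libraries was most like that of CCN2 were picked by the smallest distance between centred log2 normalized counts, among 11652 genes with a mean of at least 100. IL2RB, the β chain of the interleukin-2 receptor, was the nearest at a distance of 0.173 and had 178 to 217 normalized counts under GFP and 607 to 620 in T-MGM. ITGA3, an integrin subunit that binds laminin, followed at 0.220 with 2686 to 2792 and 7627 to 7824. ADAM19, a membrane metalloprotease, was at 0.230, ZDHHC23, a palmitoyltransferase, at 0.236, and H2AFJ, a histone H2A variant, at 0.249. With 6 libraries in 2 groups, likeness here means little more than a similar fold change, and their log2 fold changes were 1.502 to 1.63.

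Other genes of the pathway were read from a list of 28 kinases, adaptors, upstream regulators and TEAD cofactors. The list also held TEAD2 and TEAD3, and 26 of the 28 were tested. 9 rose and 10 fell at an adjusted p at or under 0.05 (19 of 26, against 38.4% of all genes and 19.2% in each direction), 7 did not pass, and the median log2 fold change was 0.04. The split depended on the setting, with 11 higher and 6 lower with offsets for GC content and gene length, and 4 higher and 11 lower on log2(TPM + 1). The 1 gene past 2-fold was WWC3, of the KIBRA family of scaffolds that activate LATS kinases, against 1.36% of all genes for the lower direction. WWC3 had 201, 204 and 235 normalized counts under GFP and 60.2, 64.4 and 36.2 in T-MGM, all far lower. Its log2 fold change was -2.01 (SE 0.20, DESeq2 adjusted p = 3.76e-22).

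Among the genes of that list past the adjusted p with a mean of at least 100 normalized counts, the next largest changes went both ways. WWC1, which is KIBRA itself, had 459, 502 and 433 normalized counts under GFP and 635, 657 and 607 in T-MGM and rose by 0.44 (SE 0.09, DESeq2 adjusted p = 1.42e-06), a call lost on the TPM scale (0.35 to 0.43, adjusted p = 0.0962 to 0.255). MOB1B, a coactivator that binds LATS kinases, had 5865, 5773 and 6049 normalized counts under GFP and 4499, 4190 and 4428 in T-MGM. It was lower in all 3, with a log2 fold change of -0.43 ± 0.03 (SE, with an adjusted p = 1.42e-45). The list as a whole had 98791 to 99647 normalized counts under GFP and 99369 to 100557 in T-MGM.

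Further targets of YAP/TAZ were read from a list of 17 genes drawn from general knowledge of a published pan-cancer signature, without the 10 genes above. PTPN14, which fell (log2 fold change -0.10), is counted in this list and in the list of kinases and adaptors. 10 rose and 3 fell at an adjusted p at or under 0.05 (13 of 17, against 38.4% of all genes and 19.2% in each direction), 4 did not pass, and the median log2 fold change was 0.45, against 0.00 over all genes tested. 4 of the 17 rose over 2-fold, against 3.26% of all genes, and none fell over 2-fold. The list was chosen with results of these data known, so its count describes the list and supports no direction.

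AXL, a receptor tyrosine kinase of the TAM family linked with invasive melanoma, changed the most in that list. It had 249, 235 and 223 normalized counts under GFP and 1034, 1180 and 1165 in T-MGM, a log2 fold change of 2.26 ± 0.09 (SE, with an adjusted p = 2.19e-136). FOXF2, a forkhead factor of mesenchymal cells, had 42.0, 50.9 and 48.0 normalized counts under GFP and 194, 182 and 190 in T-MGM (2.01, SE 0.20, DESeq2 adjusted p = 3.76e-22). For both genes the groups were far apart.

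FJX1, a secreted relative of the Drosophila four-jointed protein, had 122, 81.2 and 144 normalized counts under GFP and 292, 321 and 244 in T-MGM (1.303, SE 0.17, DESeq2 adjusted p = 8.52e-13). CRIM1, a transmembrane protein that binds BMP ligands, had 1293, 1063 and 1229 normalized counts under GFP and 2346, 2545 and 2501 in T-MGM (1.04, SE 0.09, DESeq2 adjusted p = 2.57e-31). Groups did not overlap for either gene, and CRIM1 was just past the 2-fold limit. On the log2(TPM + 1) scale, which understates changes of low genes, the log2 fold change was -0.45 for WWC3, 0.88 for FOXF2, 1.41 for AXL, 0.71 for FJX1 and 0.66 for CCN3, still past the adjusted p of 0.05 in the limma fit.

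CCN1, CCN2 and ANKRD1 also respond to SRF and its actin-sensing partners, the MRTF factors, so a list of 16 SRF and MRTF genes was read, of which 14 were tested. None was called over 2-fold by DESeq2 or by edgeR, 9 had an unadjusted p under 0.05, 6 rose and 1 fell at an adjusted p at or under 0.05 (against 19.2% of all genes in each direction), and the median log2 fold change was 0.18. The balance turned on the TPM scale, with 1 higher and 4 lower in both filtered limma fits and 1 higher and 2 lower without the filter. TPM1, a tropomyosin, had 1120, 1150 and 1192 normalized counts under GFP and 1691, 1789 and 1813 in T-MGM, and it rose by 0.61 (SE 0.05, DESeq2 adjusted p = 3.12e-31). VCL, which encodes the focal-adhesion protein vinculin, rose by 0.25 (SE 0.04, adjusted p = 1.47e-11), and FLNA, which encodes the actin cross-linker filamin A, by 0.23 (SE 0.01, adjusted p = 2.85e-63), and both calls were lost on the TPM scale (0.10 for each with 1 added to the TPM). ACTA2, smooth muscle actin, named after its values were seen, had 7.67 ± 6.51 normalized counts under GFP and 20.5 ± 9.52 in T-MGM (SD, n = 3) and a log2 fold change of 1.41 (DESeq2 adjusted p = 0.0794). Without GFP replicate 3 it was 2.34 (adjusted p = 0.0163) and without T-MGM replicate 3 it was 1.76 (adjusted p = 0.0385), which makes 1 called gene in place of none.

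**Figure D4:**
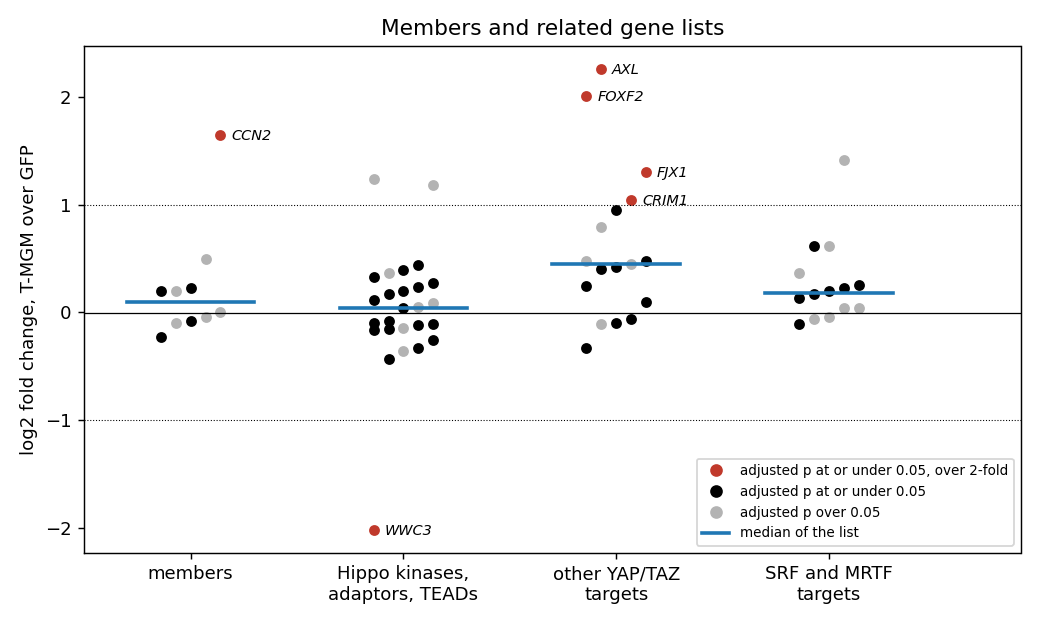
Log2 fold change of T-MGM over GFP (y axis) of each tested gene of the 10 members and the 3 related lists, coloured by the DESeq2 call, with the median of each list as a blue bar; dotted lines mark 2-fold. CCN2 is the called gene among the members, WWC3 among the Hippo genes at -2.01, and AXL, FOXF2, FJX1 and CRIM1 among the other targets, while no SRF or MRTF target is called.

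Fibroblasts and endothelial cells carry high CCN1 and CCN2, so their markers were read as well. In bulk RNA, fewer cells of a type and less RNA per cell cannot be told apart. The 8 fibroblast markers summed to 354 to 358 normalized counts under GFP and 583 to 672 in T-MGM, and 3 of the 6 tested rose, against 19.2% of all genes. Most of that sum was LUM, a proteoglycan (304 ± 16.8 and 516 ± 29.4, SD, n = 3, log2 fold change 0.77), a call lost on the TPM scale (adjusted p = 0.0595 to 0.172). COL1A1 had 24.9 ± 6.15 and 58.5 ± 1.964 normalized counts (log2 fold change 1.23, DESeq2 adjusted p = 0.000608). It no longer passed in 2 of its 16 alternatives. PDGFRB had 10.6 ± 7.34 and 27.3 ± 14.3 normalized counts. COL1A1 and PDGFRB were the 2 of the 6 called over 2-fold higher, against 3.26% of all genes. The PDGFRB call (DESeq2 adjusted p = 0.0482) was lost without GFP replicate 1 or 3 or T-MGM replicate 2 or 3 (0.88 to 1.55, adjusted p = 0.0641 to 0.391), and in 11 of its 16 alternatives in all. COL3A1 and COL1A2, defining collagens of fibroblasts, had at most 2 and 5 raw counts in any library.

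The 3 endothelial markers summed to 20.4 to 34.6 normalized counts under GFP and 34.7 to 48.8 in T-MGM, with none of the 2 tested passing (0 at an unadjusted p under 0.05 by DESeq2). Of 3 leukocyte markers, PTPRC and CD3E had at most 2 and 1 raw counts in any library, and CD68 alone rose (755 ± 34.7 and 1026 ± 121, log2 fold change 0.45). The 4 keratinocyte markers summed to 847 to 927 normalized counts under GFP and 864 to 1019 in T-MGM, nearly all of it KRT10, which did not pass (DESeq2 adjusted p = 0.292). The part of other cells in the CCN2 result was not tested. CCN2 itself was at 1218 counts or more in every library.

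TEAD4, whose fold change was near 0, changed direction with the scaling, with the offsets for GC content and gene length, and with single libraries left out. YAP1 changed direction with these offsets, and CCN1 without GFP replicate 3. CCN2, WWTR1, TEAD1, AMOTL2 and LATS2 kept their direction in the 18 alternatives. On the TPM scale the median of expressed genes was -0.13 to -0.15, against -0.01 for normalized counts, so changes are given relative to that median. CCN2 was 1.54 to 1.64 above it on the TPM scale and 1.66 on the count scale, WWTR1 0.21 to 0.24 and 0.21, and AMOTL2 0.19 to 0.23 and 0.23. LATS2 was -0.18 to -0.17 relative to it on the TPM scale and -0.22 on the count scale. YAP1 was within 0.02 of the median on the TPM scale.

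**Figure D5:**
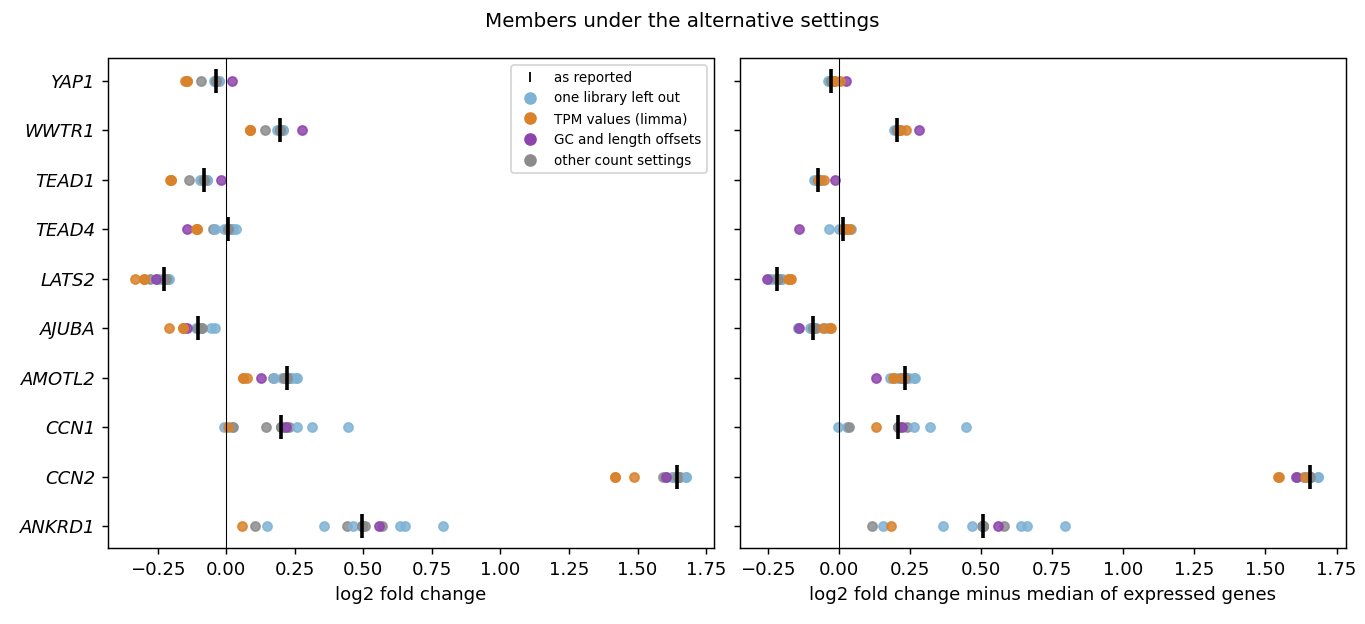
Log2 fold change of T-MGM over GFP of the 10 genes as reported (black bar) and under each alternative setting (points, coloured by kind), on the left as fitted and on the right after subtracting the median of expressed genes in the same setting. CCN2 keeps 1.42 or more as fitted in every setting shown, WWTR1, AMOTL2 and LATS2 keep their direction, YAP1, TEAD4 and CCN1 cross 0, and ANKRD1 spreads from 0.06 to 0.79.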

How the data were processed

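RNA of WM164 cells was sequenced in 3 GFP and 3 T-MGM libraries, with groups and replicate numbers taken from the sample titles. The authors trimmed reads with cutadapt 1.8.1, aligned them to GRCh38 with STAR 2.7.7a and deposited raw counts of uniquely aligned reads per gene. They also deposited TPM values, rounded to 2 decimals, and the submitters' processing notes name RSEM 1.3.0. The annotation release is not given in the sources used here, and the labels name a library kit without strand information while the study's methods name one with it.

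The counts were compared as deposited with DESeq2 1.42.0 in R 4.3.3, the tool of the study's methods, with group alone in the model, size factors from the median of ratios, the Wald test (2-sided), unshrunken fold changes and independent filtering at 0.05. A local regression replaced the parametric dispersion trend. A gene was called at an adjusted p at or under 0.05 with an absolute log2 fold change over 1. Alternatives used edgeR 4.0.16 (quasi-likelihood, TMM), limma 3.58.1 on log2(TPM + 1) or log2(TPM + 0.1) with or without a minimum of 0.5 TPM in 3 libraries, other scalings and filters, a replicate block, offsets for GC content and gene length, and leaving out each library. DESeq2, edgeR and limma fits were tested on simulated counts, with changes over 2-fold planted in genes with a mean of at least 100. Smaller changes, genes with few counts and the remaining alternatives were not covered by that check. Gene positions and exon lengths came from GENCODE 44, which matched 99.4% of the gene identifiers. Intervals on counts at the floor (3 counts) reflect counting error alone, because PCR copies cannot be told from separate molecules here.

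The members and lists were chosen with earlier results of these data known. Named besides the 10 members were the called genes of each list, the 3 with the largest change among those past the adjusted p with a mean of at least 100 normalized counts, LATS1, TEAD2, TEAD3, the CCN family, and the 5 genes nearest to CCN2 by Euclidean distance.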

Additional observations from a re-analysis of the deposited data

How the results depend on the processing

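The call of CCN2 held in all 18 alternatives, from 1.42 to 1.68. Over all genes, 885 were called (70.5% higher), against 205 when testing against a log2 fold change of 1, 207 with shrunken fold changes, and 133, 369 and 126 in the TPM fits with 1 added, 0.1 added and 1 added without a filter, where 52.6%, 55.3% and 52.4% were higher. Tested against 1, 1 of the 10 members passed, and WWTR1 (0.20), TEAD1 (-0.0826), AMOTL2 (0.22) and LATS2 (-0.23) did not. The Hippo list had 0 called in both fits with 1 added to the TPM. The other targets had 2 called when tested against 1 or shrunken, and 1 in each of those TPM fits. The SRF and MRTF list had 0 to 1 called over the fits that left out a library. YAP1 passed as lower with total-count scaling (-0.0917, adjusted p = 0.0112) and on TPM (-0.14, -0.15 and -0.14), and was 0.0227 with offsets for GC content and length. TEAD4 turned to -0.0485 with total-count scaling, -0.144 with these offsets and -0.107, -0.112 and -0.107 on TPM, and ranged from -0.0422 to 0.0356 with 1 library left out. CCN1 ranged from -0.00868 to 0.443 with 1 library left out. TEAD1 was -0.0183 with the offsets. AMOTL2 was 0.13 with the offsets, 0.0625, 0.0746 and 0.0625 on TPM and 0.17 to 0.26 with 1 library left out. LATS1 was 0.0282 with the offsets. With 1 library left out TEAD3 ranged from -0.242 to 0.000249 and CCN4 from -0.499 to 0.160, CCN4 was 0.0186 on TPM without a filter, and MITF was -0.0620, -0.0624 and -0.0620 on TPM. Counts per exon length left 6 of 10 members at the same rank in T-MGM, and the longer TEAD motif CATTCCA matched 3 windows in place of 6. Except where the alternative tests a larger fold change or uses fewer libraries, the cause was not tested. Replicate numbers did not pair the libraries, since same-numbered libraries had correlations of -0.00234, -0.0404 and 0.0426 in their deviations from the group means. With the replicate number as a block, 735 genes were called and CCN2 was at 1.64, and among the named genes LATS1 (adjusted p = 0.0525), TEAD2 (0.0756) and PDGFRB (0.122) no longer passed. Depth limits CCN1 and ANKRD1 most, with 34 counts or fewer in every library.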
